A study of Mus musculus with 8 samples.

Results

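The genes described here encode feedback inhibitors of mitogen-activated protein kinase (MAPK) signalling: 5 dual-specificity phosphatases (Dusp1, Dusp4, Dusp5, Dusp6 and Dusp14), 3 Sprouty proteins (Spry1, Spry2 and Spry4) and 2 Spred proteins (Spred1 and Spred2). They were taken by gene name, and each was represented by the transcript with the most counts over all libraries. The 10 genes are among 34980 in the count files, and all 10 were among the 15841 tested after a filter on low counts. RNA came from layer IV of the visual cortex of B6D2 mice, dissected by hand, and each library held a pool of 4 mice. The groups were wild-type (Otx2 +/+) mice at postnatal day 30 (P30), wild-type mice at P100, and P30 mice heterozygous for Otx2, an allele that the design text gives as +/GFP and the sample labels as +/-. Each group had 2 libraries. The 2 heterozygous P100 samples of the series were not analysed here. Nothing in the labels ties the duplicates to separate pools, so p-values measure only the spread between these libraries, which may be technical.

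Extracellular signals such as growth factors and neurotrophins act through receptor tyrosine kinases, Ras, Raf and MEK to phosphorylate the kinase ERK, and ERK then switches on genes in the nucleus. Among those genes are inhibitors of the same route. Dusp proteins remove phosphate from MAP kinases, Sprouty proteins act between the receptor and Raf, and Spred proteins bind neurofibromin and hold Ras in its inactive state. In cortical neurons ERK is activated by synaptic activity and calcium entry, and several of these inhibitors are known as activity-induced transcripts.

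The sequence before the start of a gene holds part of what links it to such signals. It is shown for Dusp1, Dusp5, Dusp6 and Spry2, the 4 members that fell at P100 (below). It is also shown for Spred1, which was not called lower in either comparison with P30 wild type. RefSeq starts (build GRCm38.p6, the same assembly as mm10) were matched for 8 of the 10 members, not for Dusp4 or Spry4. Each run holds the 250 bases before the start, 5′ to 3′ on the gene's strand. Capitals mark the cAMP response element TGACGTCA (CRE), its core TGACG on either strand, and the CArG box, the binding sequence of serum response factor.
Dusp1, chr17:26508473-26508722, minus strand: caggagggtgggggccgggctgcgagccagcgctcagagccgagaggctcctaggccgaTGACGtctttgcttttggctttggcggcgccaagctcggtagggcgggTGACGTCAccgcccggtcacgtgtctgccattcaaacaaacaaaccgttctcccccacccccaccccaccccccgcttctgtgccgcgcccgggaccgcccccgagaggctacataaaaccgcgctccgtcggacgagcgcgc
Dusp5, chr19:53528895-53529144, plus strand: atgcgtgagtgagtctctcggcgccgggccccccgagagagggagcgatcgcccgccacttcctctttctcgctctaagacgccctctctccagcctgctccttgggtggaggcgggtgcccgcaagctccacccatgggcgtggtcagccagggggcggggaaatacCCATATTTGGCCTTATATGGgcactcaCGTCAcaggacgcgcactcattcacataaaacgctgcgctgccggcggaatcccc
Dusp6, chr10:99262981-99263230, plus strand: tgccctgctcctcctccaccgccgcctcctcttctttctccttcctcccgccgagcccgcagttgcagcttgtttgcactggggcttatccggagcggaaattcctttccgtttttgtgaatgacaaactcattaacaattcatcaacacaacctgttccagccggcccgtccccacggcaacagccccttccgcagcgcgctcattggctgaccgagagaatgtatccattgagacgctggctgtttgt
Spry2, chr14:105896820-105897069, minus strand: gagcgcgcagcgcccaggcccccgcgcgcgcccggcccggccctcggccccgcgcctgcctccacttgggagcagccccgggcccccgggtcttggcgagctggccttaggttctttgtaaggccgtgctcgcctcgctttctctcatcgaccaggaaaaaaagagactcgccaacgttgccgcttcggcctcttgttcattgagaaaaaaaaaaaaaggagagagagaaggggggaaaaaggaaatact
Spred1, chr2:117120821-117121070, plus strand: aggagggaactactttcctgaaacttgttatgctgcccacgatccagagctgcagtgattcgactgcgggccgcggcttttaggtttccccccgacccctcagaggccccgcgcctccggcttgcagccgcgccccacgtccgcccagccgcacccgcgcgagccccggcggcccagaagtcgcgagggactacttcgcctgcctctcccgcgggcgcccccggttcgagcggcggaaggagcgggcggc
The Dusp1 run holds a full CRE at positions -143 to -136, counted back from -1 at the base before the start, and a separate core TGACG at -191 to -187. A full CRE overlaps the core on each strand, and 1.55% of all 32851 RefSeq windows of this length hold one, against 17.8% with the core. Dusp5 holds 2 adjoining CArG boxes, at -82 to -73 and -72 to -63, and a core of the CRE on the other strand at -55 to -51. CArG boxes stood in 1.47% of all windows. Spred2 was the third member with a core of the CRE, at -51 to -47 on the other strand. The windows of Dusp6, Dusp14, Spry1, Spry2 and Spred1 held none of these letters. Neither the AP-1 sequence TGANTCA (6.75% of windows) nor the Ets sequence CCGGAAG (6.91%), searched on both strands, was in any of the 8. These are matches of letters in 1 window per gene, and binding was not measured.

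**Figure D1:**
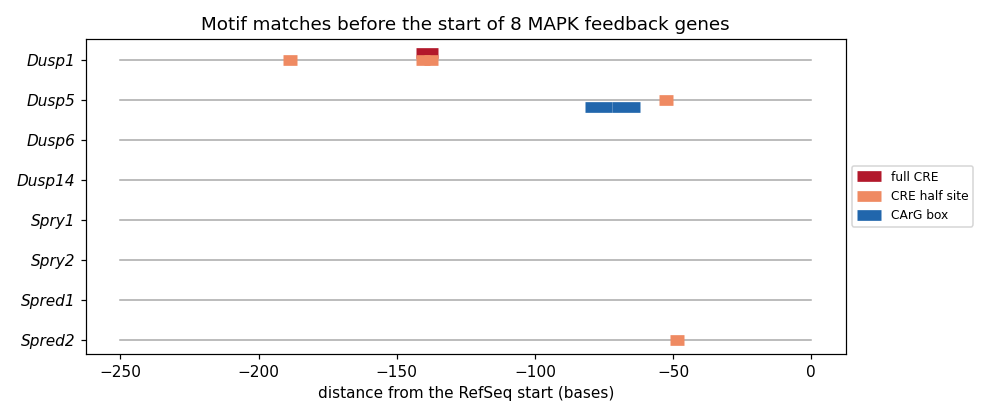
Positions of CRE, CRE core and CArG box matches in the 250 bases before the RefSeq start of 8 members. The horizontal axis is the distance from the start in bases and each grey line is 1 gene. Matches lie in Dusp1, Dusp5 and Spred2, and the 5 other lines are bare.

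Total counts over genes ran from 11016841 to 15308781 per library. Layer IV identity could not be checked, since there was no library of another layer to compare with. Rorb, a factor gene of layer IV neurons, stood between 497.4 and 580.8 CPM (counts relative to the library total) in all 6 libraries. All levels here are CPM, with library totals scaled by TMM (trimmed mean of M-values). The genotype label could not be checked from Otx2, which had 0 counts in 5 libraries and 73 in heterozygous replicate 2. That library also held 583.7 CPM of the choroid plexus transcript Ttr, and the summed level of 8 choroid plexus markers was 616.9 CPM there against 0.730 to 1.61 CPM in the others. The heterozygous libraries had 784.8 and 924.4 CPM of Xist, which is transcribed from the inactive X, against 0.264 to 0.639 CPM in wild type, so genotype and sex cannot be told apart. Myelinating oligodendrocyte markers moved with the groups: all 9 were lower at P100 and all 9 in heterozygotes, and their sum was 3140 to 3266 CPM at wild-type P30, 1520 to 1803 at P100 and 2254 to 2319 in heterozygotes. Oligodendrocyte precursor markers were called lower with age for 5 of 7, with sums of 258.6 to 260.1 CPM at wild-type P30, 147.7 to 172.6 at P100 and 245.2 to 265.2 in heterozygotes. Astrocyte markers were called lower for 3 of 8 with age and 2 of 8 in heterozygotes, with sums of 6402 to 6720, 5992 to 6131 and 6132 to 6219 CPM. Endothelial and mural markers were called lower for 2 and 1 of 8, and microglia markers for 1 and 0 of 8, with 1 microglia marker lower in heterozygotes at an unadjusted p under 0.05 in edgeR and 0 called in DESeq2 or limma-voom. Summed excitatory neuron markers were 2983 to 3519, 2760 to 2898 and 2872 to 3133 CPM in the same order, with 2 of 8 (Slc17a7 and Nrgn) called lower at P100. In heterozygotes 0 of 8 were called in edgeR, DESeq2 or limma-voom, with 1 lower and 1 higher at an unadjusted p under 0.05 in edgeR. The part of these differences in the results below was not tested. In pooled tissue, fewer cells of a type and less RNA per cell cannot be told apart.

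The members differed widely in abundance. Per kilobase of transcript, mean levels over the 6 libraries ran from 2.39 CPM per kb for Spry4, at the 25.9th percentile of tested genes, to 80.4 CPM per kb for Spred1, at the 96.2nd. At wild-type P30, Dusp6 (77.6 ± 1.83 CPM per kb, SD, n = 2) and Spred1 (77.0 ± 8.54) were the highest and did not differ beyond their spread. Dusp14 (39.5 ± 9.95) and Spry2 (32.0 ± 3.37) followed, also within their spread, and then Dusp1 (24.2 ± 0.140) and Dusp5 (15.9 ± 3.99). Spred2, Dusp4, Spry1 and Spry4 lay between 6.93 and 3.35 CPM per kb. At P100 the order was another: Spred1 stood at 93.8 ± 4.38 CPM per kb and Dusp6 at 33.1 ± 2.80, while Dusp1 (6.49 ± 2.76), Dusp5 (5.01 ± 0.00854) and Dusp4 (5.06 ± 1.21) had come to lie within the spread of one another.

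At P100, 4 members fell against P30 wild type and 1 rose. Dusp1, Dusp5, Dusp6 and Spry2 were lower, Spred1 was higher, and the other 5 did not pass the test. Called means an adjusted p under 0.05 in edgeR's quasi-likelihood test over all genes (Benjamini-Hochberg), which held downward for 4.54% and upward for 2.999% of tested genes. The median log2 difference of the 10 members was -0.52, against 0.00 over all genes tested. Levels at P100 lay below both P30 libraries for 6 members and above them for 1, which held for 25.7% and 25.5% of all tested genes.

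In heterozygotes at P30, 5 members fell against P30 wild type and none rose. These were Dusp1, Dusp5, Dusp6, Spry2 and Spry4. Downward calls made up 2.32% and upward calls 0.903% of tested genes, and no member was higher at an unadjusted p under 0.05 in edgeR or called higher in DESeq2 or limma-voom. The log2 difference was negative for all 10 members, with a median of -0.70 against 0.00 over all genes. Both heterozygous libraries lay below both wild-type libraries for 8 members and above them for 0, which held for 24.4% and 24.5% of tested genes. Without heterozygous replicate 2, the library with choroid plexus transcripts, the log2 differences were -3.06 for Dusp1, -2.39 for Dusp5, -1.46 for Dusp6, -0.72 for Spry2 and -1.16 for Spry4, each past the threshold in edgeR. Wherever 1 library is left out, its group has 1 library with no spread of its own, and that library is assumed to vary like the other groups. The age and genotype comparisons share the wild-type P30 libraries and are not independent of each other.

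**Figure D2:**
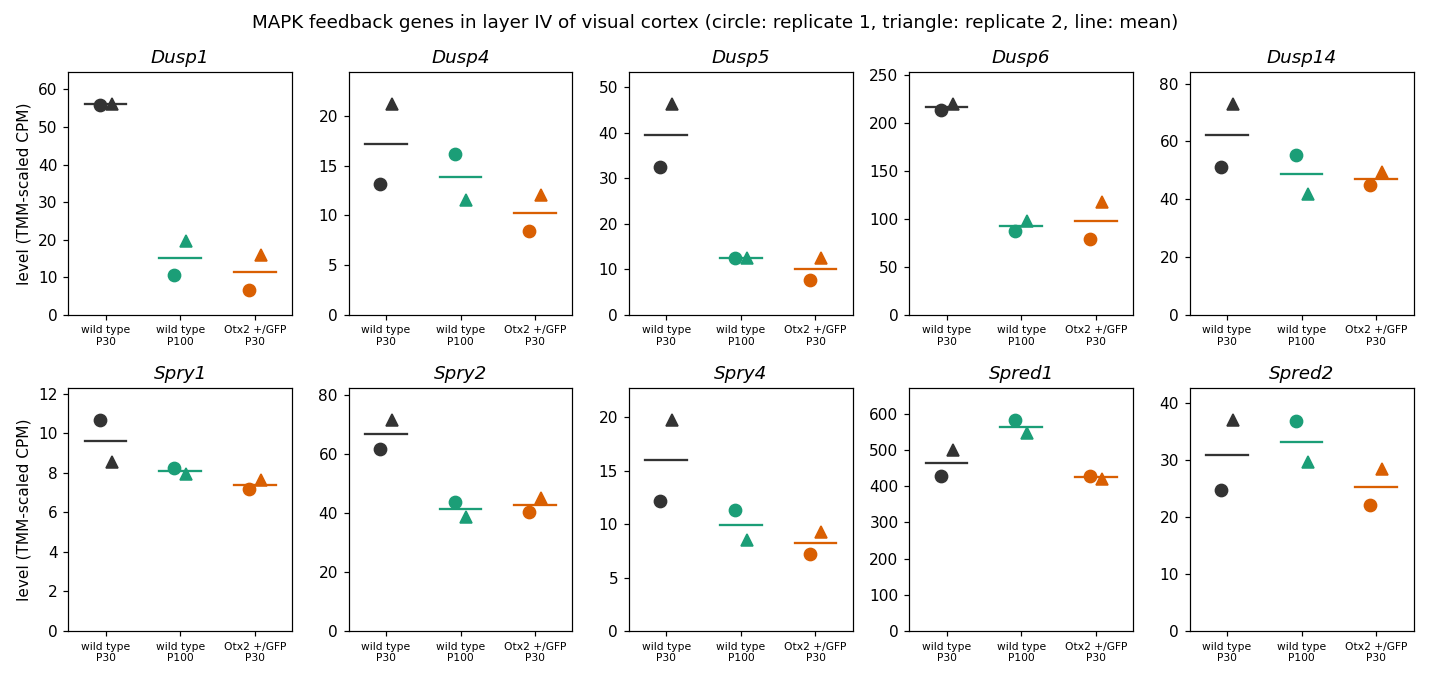
TMM-scaled CPM (vertical axes, each from 0) of the 10 members in the 3 groups, with 1 point per library and a line at the mean of 2. Dusp1, Dusp5, Dusp6 and Spry2 stand apart at wild-type P30, whereas Dusp4, Dusp14 and Spred2 overlap between ages and Spred1 is highest at P100.

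Dusp1 (ENSMUSG00000024190, chromosome 17, 26505590 to 26562128, minus strand, mm10) encodes a nuclear phosphatase of ERK, JNK and p38 that is made within minutes of stimulation. It stood at 55.8 and 56.2 CPM in the wild-type P30 libraries, at 10.5 and 19.5 CPM at P100 and at 6.70 and 15.8 CPM in heterozygotes. The P30 wild-type duplicates were nearly equal, and all 4 other libraries were lower. Dusp1 fell 3.78-fold with age (log2 difference -1.92, SE 0.27, edgeR adjusted p = 0.00107) and 4.96-fold in heterozygotes (log2 -2.31, SE 0.28, edgeR adjusted p = 4.75e-04). Its duplicates differed 1.86-fold at P100 and 2.36-fold in heterozygotes, ratios reached by 4.19% and 1.56% of genes. Without heterozygous replicate 1 the genotype difference was -1.82, and without replicate 2 it was -3.06. Its age difference was -1.52 without P100 replicate 1 and -2.41 without P100 replicate 2. All 4 stayed past the threshold, with the spread taken from the other groups. The transcript counted, ENSMUST00000126178, keeps an intron. Its counts were 611, 809, 145, 222, 100 and 243 in the order of groups and replicates, and those of the coding transcript ENSMUST00000025025 were 592, 796, 143, 212, 99 and 232. Both transcripts thus had nearly the same counts in each library. Reads that overlap both are counted in each, so these counts do not measure the 2 transcripts separately.

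Dusp5 (ENSMUSG00000034765, chromosome 19, 53529109 to 53542431, plus strand), whose product is a nuclear phosphatase specific to ERK, stood at 32.4 and 46.4 CPM at wild-type P30. It was at 12.4 CPM in each P100 library and at 7.57 and 12.4 CPM in heterozygotes. Every P30 wild-type library was above every other. Dusp5 fell 3.20-fold with age (log2 -1.68, SE 0.20, edgeR adjusted p = 2.21e-04) and 3.96-fold in heterozygotes (log2 -1.99, SE 0.20, edgeR adjusted p = 9.32e-05). In GENCODE M21, 22.1% of its exon bases are shared with the gene AC137853.2 on the opposite strand, and the use of strand in counting is not given in the sources used here, so reads of the 2 genes cannot be told apart there.

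Dusp6 (ENSMUSG00000019960, chromosome 10, 99263231 to 99267489, plus strand) encodes the cytoplasmic phosphatase of ERK and was the most abundant Dusp gene of the set. Its levels were 213.3 and 220.6 CPM at wild-type P30, 87.1 and 98.2 CPM at P100 and 79.0 and 118.0 CPM in heterozygotes. The 2 lower groups overlapped each other and lay well under the P30 wild-type libraries. Dusp6 fell 2.34-fold with age (log2 -1.23, SE 0.13, edgeR adjusted p = 1.29e-04) and 2.20-fold in heterozygotes (log2 -1.14, SE 0.13, edgeR adjusted p = 3.53e-04).

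Dusp4 and Dusp14 were not called in either comparison. Dusp4 (ENSMUSG00000031530, chromosome 8, 34807297 to 34819894, plus strand) encodes a nuclear phosphatase related to Dusp1. It stood at 13.1 and 21.3 CPM at wild-type P30, 16.2 and 11.5 CPM at P100 and 8.45 and 12.1 CPM in heterozygotes. The ages overlapped (log2 -0.32, SE 0.22, edgeR adjusted p = 0.434). Both heterozygous libraries were lower than both wild-type P30 libraries, but the difference of -0.76 (SE 0.23) missed the threshold (edgeR adjusted p = 0.0910). Dusp14 (ENSMUSG00000018648, chromosome 11, 84048041 to 84069261, minus strand), a small phosphatase without the kinase-binding domain of the others, stood at 51.0 and 73.1, 55.4 and 42.0, and 44.8 and 49.4 CPM in the same order. Its differences were -0.35 (SE 0.15) with age and -0.41 (SE 0.15) in heterozygotes, with edgeR adjusted p of 0.191 and 0.182. Both were called under some alternatives. With no filter on low counts, all 6 libraries were kept and the log2 differences hardly changed, but the SEs were smaller. That fit held 24034 genes. For Dusp1 with age its SE was 0.13 against 0.27 in the main fit, and its edgeR adjusted p 2.73e-49 against 0.00107. Why the SEs shrank was not tested, and its calls show only that the filter matters. In heterozygotes Dusp4 had an SE of 0.15 without the filter (edgeR adjusted p = 3.49e-05) and Dusp14 an SE of 0.10 (edgeR adjusted p = 0.00488). With age Dusp14 had an SE of 0.11 in that fit (edgeR adjusted p = 0.0145). Without wild-type P30 replicate 1, the edgeR adjusted p of the genotype difference was 0.0199 for Dusp4 (log2 -1.05) and 0.0268 for Dusp14 (log2 -0.64), and that of the age difference of Dusp14 was 0.0300 (log2 -0.58). Without wild-type P30 replicate 2 the age difference of Dusp4 was 0.09, and the genotype difference without heterozygous replicate 2 was -1.04 (edgeR adjusted p = 0.0450).

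Among the Sprouty genes Spry2 fell in each comparison. Spry2 (ENSMUSG00000022114, chromosome 14, 105891947 to 105896819, minus strand), an inhibitor induced by growth factors, stood at 61.7 and 71.7 CPM at wild-type P30, 43.8 and 38.8 CPM at P100 and 40.5 and 45.3 CPM in heterozygotes. Its P30 wild-type levels were above all others, and the 2 lower groups overlapped. The fall was 1.62-fold with age (log2 -0.69, SE 0.11, edgeR adjusted p = 0.00181) and 1.56-fold in heterozygotes (log2 -0.64, SE 0.11, edgeR adjusted p = 0.00463). In heterozygotes Spry2 missed the threshold without wild-type P30 replicate 2 (log2 -0.52, edgeR adjusted p = 0.0507) and without heterozygous replicate 1 (log2 -0.56, edgeR adjusted p = 0.0587).

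Spry4 (ENSMUSG00000024427, chromosome 18, 38586247 to 38601415, minus strand), the least abundant member per kilobase, stood at 12.1 and 19.7 CPM at wild-type P30, 11.3 and 8.54 CPM at P100 and 7.24 and 9.24 CPM in heterozygotes. The P30 wild-type libraries were above the rest, the first of them by little. Spry4 fell 1.96-fold in heterozygotes (log2 -0.97, SE 0.22, edgeR adjusted p = 0.0263), while its age difference of -0.69 (SE 0.22) had an edgeR adjusted p of 0.0686. Its duplicates at wild-type P30 differed 1.63-fold, a ratio reached by 7.36% of genes. This fall missed the threshold without wild-type P30 replicate 2 (log2 -0.56, edgeR adjusted p = 0.289) and without heterozygous replicate 1 (log2 -0.80, edgeR adjusted p = 0.183). The fit of counts summed over transcripts also ended the call (log2 -0.96, SE 0.25, edgeR adjusted p = 0.0966). Spry4 has 1 counted transcript, so its own counts were the same in that fit and only those of other genes changed. The age difference was called with no filter on low counts (edgeR adjusted p = 4.22e-04), where it was nearly unchanged at -0.70 but its SE was smaller, at 0.16. Without wild-type P30 replicate 1 it was -0.98 and was called (edgeR adjusted p = 0.0122), and without replicate 2 it was -0.28. Spry1 (ENSMUSG00000037211, chromosome 3, 37639947 to 37644598, plus strand) was low throughout, at 10.7 and 8.55, 8.25 and 7.92, and 7.17 and 7.62 CPM. Its library counts were 90 to 123, and its differences of -0.24 (SE 0.17) and -0.37 (SE 0.17) had edgeR adjusted p of 0.442 and 0.279. Of its exon bases, 10.4% are shared with Gm42922 on the opposite strand.

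The Spred genes were not called lower in either comparison with wild-type P30. Spred1 (ENSMUSG00000027351, chromosome 2, 117121374 to 117182279, plus strand), the member with the most counts, stood at 427.2 and 499.8 CPM at wild-type P30, 582.7 and 545.5 CPM at P100 and 429.0 and 418.6 CPM in heterozygotes. Only P100 lay apart from wild-type P30, on the high side. Spred1 rose 1.22-fold with age (log2 0.28, SE 0.08, edgeR adjusted p = 0.0406). That call lay close to the threshold and was lost in 7 of 16 alternative fits, among them those without wild-type P30 replicate 1 (log2 0.17, adjusted p = 0.213), P100 replicate 1 (log2 0.23, adjusted p = 0.213), P100 replicate 2 (log2 0.33, adjusted p = 0.0959) and heterozygous replicates 1 and 2 (adjusted p = 0.0521 and 0.0538), all in edgeR. The other 2 were the fit of only the 4 libraries compared (adjusted p = 0.0627) and summed transcripts (0.0821). In heterozygotes the difference was -0.13 (SE 0.08, edgeR adjusted p = 0.423). Spred2 (ENSMUSG00000045671, chromosome 11, 19924375 to 20024026, plus strand) stood at 24.6 and 37.0, 36.7 and 29.6, and 21.99 and 28.4 CPM, with groups that overlapped in both comparisons. Its differences were 0.10 (SE 0.17) with age and -0.30 (SE 0.17) in heterozygotes, with edgeR adjusted p of 0.794 and 0.412.

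**Figure D3:**
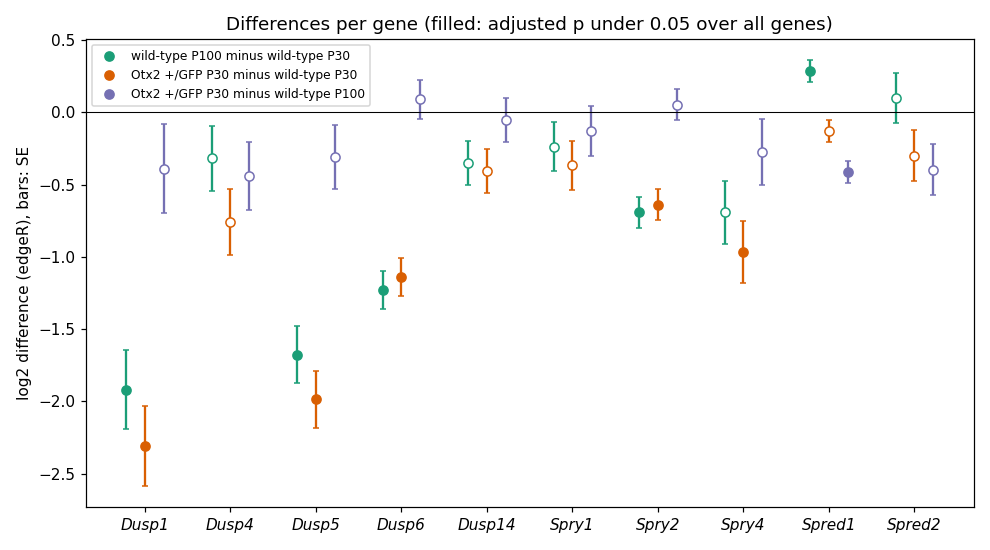
Log2 differences (vertical axis) of the 10 members in the 3 comparisons, with bars of 1 SE from edgeR and filled points for an adjusted p under 0.05. Differences from wild-type P30 reach -2.31 for Dusp1, and Spred1 is the member with a filled point above 0.

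Heterozygous P30 tissue was also set against wild-type P100 tissue. This contrast is the difference between the age and genotype changes, and it mixes age, genotype and sex. Downward calls made up 2.66% and upward calls 2.44% of tested genes. Spred1 was the member called, 1.33-fold lower in heterozygotes (log2 -0.41, SE 0.08, edgeR adjusted p = 0.00773), and no member was called higher or was higher at an unadjusted p under 0.05 in edgeR, nor called higher in DESeq2 or limma-voom. Both heterozygous libraries were below both P100 libraries for 4 members and above them for 0, against 25.05% and 25.4% of tested genes. The Spred1 difference no longer passed the threshold without P100 replicate 1 (log2 -0.36, edgeR adjusted p = 0.0803) and without heterozygous replicate 2 (log2 -0.39, edgeR adjusted p = 0.0524). For the 4 members that fell with age the 95% intervals of the log2 difference were wide for Dusp1 (-1.05 to 0.27) and Dusp5 (-0.78 to 0.16). They were narrower for Dusp6 (-0.20 to 0.38) and Spry2 (-0.18 to 0.29). Without heterozygous replicate 2, Dusp1 was lower than at P100 by 1.14 on the log2 scale and was called (edgeR adjusted p = 0.0293), while without heterozygous replicate 1 its difference was 0.09.

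**Figure D4:**
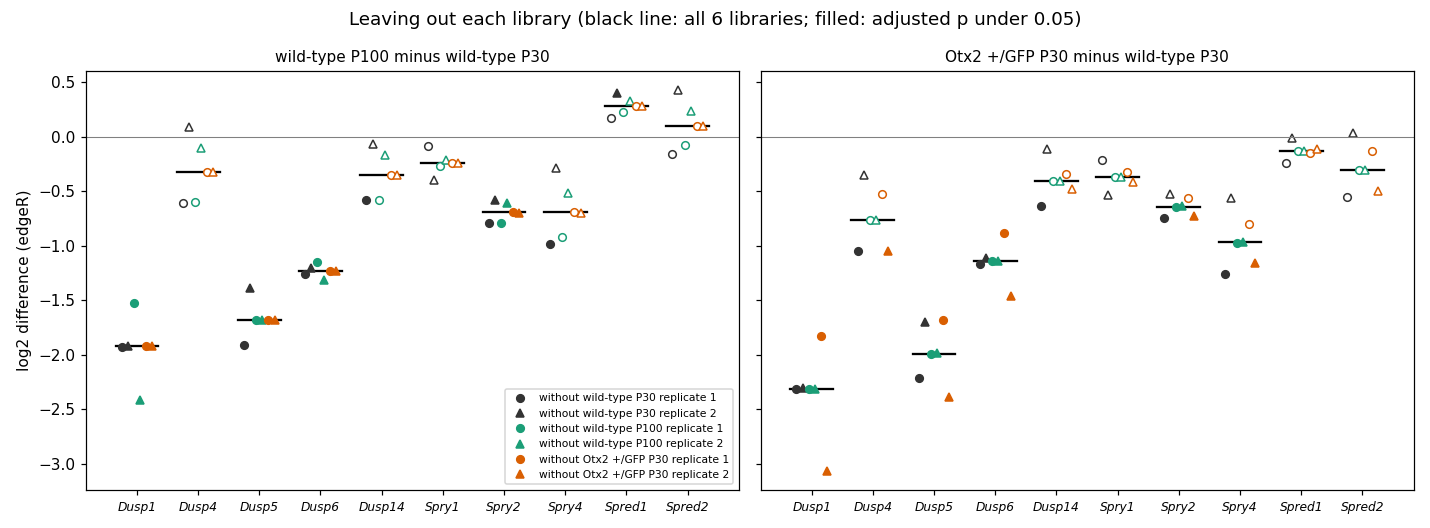
Log2 differences (vertical axis) of the 10 members after leaving out each library in turn, for age (left) and genotype (right), with the value from all 6 libraries as a black line and filled points for an adjusted p under 0.05. Dusp1, Dusp5 and Dusp6 are filled throughout, and the points of Spry4 in heterozygotes run from -1.26 to -0.56.

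Within groups the members did not scatter evenly. At wild-type P30, 9 of 10 members were higher in replicate 2 than in replicate 1, with ratios up to 1.63 (Spry4) and 1.62 (Dusp4), although the median ratio over all tested genes was 1.00. In heterozygotes 9 of 10 were higher in replicate 2, and at P100 7 of 10 were higher in replicate 1. Spry1 at wild-type P30 and Spred1 in heterozygotes were the exceptions in the first 2 groups.

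Other genes of the pathway were read from lists chosen by role, with earlier results of these data known. Counts at an unadjusted p under 0.05 are given without the share of all tested genes, which was not counted at that cutoff. Other dual-specificity MAPK phosphatases (Dusp2, Dusp7, Dusp8, Dusp9, Dusp10 and Dusp16) had a median log2 difference of 0.04 with age, with 0 of 6 called in edgeR, DESeq2 or limma-voom and 1 higher at an unadjusted p under 0.05 in edgeR. In heterozygotes 1 of 6 fell: Dusp16, a phosphatase of JNK and p38, went from 22.5 and 23.2 CPM to 14.7 and 11.5 CPM, 1.74-fold lower (log2 -0.80, SE 0.13, edgeR adjusted p = 0.00467). Dusp16 was at 19.0 and 19.1 CPM at P100. Of 11 tested atypical Dusp genes, Dusp3 and Dusp18 fell and Dusp28 rose with age. The call of Dusp28 was lost in 10 of 16 alternative fits, with an edgeR adjusted p of 0.0509 to 0.227 when any 1 of the 6 libraries was left out. That of Dusp18 was lost without P100 replicate 2 (log2 -0.58, edgeR adjusted p = 0.0516), and that of Dusp3 without wild-type P30 replicate 2 (log2 -0.27, edgeR adjusted p = 0.0784) or P100 replicate 2 (log2 -0.28, edgeR adjusted p = 0.119). Spry3, Spred3 and 8 partners of Sprouty and Spred proteins, the neurofibromin gene Nf1 among them, had 0 of 10 called with age and 0 of 10 in heterozygotes in edgeR, DESeq2 and limma-voom. At an unadjusted p under 0.05 in edgeR, 0 and 1 of them were lower and 0 and 0 higher.

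Upstream of ERK, calls were few among the Raf, MEK and ERK kinases and scaffolds and among the receptor ligands, but not among the receptors. Of 16 Raf, MEK and ERK kinases and scaffolds, 1 fell with age (the scaffold Iqgap1) and 0 were called in heterozygotes by edgeR, DESeq2 or limma-voom, with 2 lower and 2 higher at an unadjusted p under 0.05 in edgeR. The Iqgap1 difference of -0.43 (edgeR adjusted p = 0.0208) was not called without wild-type P30 replicate 2 (adjusted p = 0.108), P100 replicate 1 (0.0870) or P100 replicate 2 (0.112), nor with summed transcripts (0.0634). Median differences of this list were -0.09 and -0.01. Of 17 receptor tyrosine kinases 4 fell and 2 rose with age, against 4.54% and 2.999% of all tested genes. Erbb3, Kdr, Met and Pdgfra fell, and Erbb4 and Igf1r rose. Pdgfra was also among the oligodendrocyte precursor markers called lower with age above. The part of cell-type differences in these receptor calls was not tested. In heterozygotes 2 of the 17 fell and 1 rose, against 2.32% and 0.903% of all tested genes. The gene higher there was Met, the receptor of hepatocyte growth factor, at 50.3 CPM against 25.3 CPM in wild type (log2 1.00, SE 0.18, edgeR adjusted p = 0.00828). Its call was lost with DESeq2 (log2 0.99, adjusted p = 0.0714) and in edgeR without wild-type P30 replicate 2 (log2 0.79, adjusted p = 0.0950) or heterozygous replicate 1 (log2 0.70, adjusted p = 0.0793). Of 16 tested receptor ligands 0 fell and 1 rose with age (Igf1), and 0 were called in heterozygotes by any of the 3 tools, with 2 lower and 0 higher at an unadjusted p under 0.05 in edgeR. The Igf1 difference of 0.55 (edgeR adjusted p = 0.0285) was not called without wild-type P30 replicate 1 (adjusted p = 0.136), P100 replicate 1 (0.0799) or P100 replicate 2 (0.156), with summed transcripts (0.154) or with DESeq2 (0.0980).

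Of 15 tested JNK and p38 pathway kinases, 0 were called by edgeR in either comparison with wild-type P30. At an unadjusted p under 0.05 in edgeR, 2 were lower and 1 higher with age and 5 lower and 1 higher in heterozygotes, where DESeq2 and limma-voom each called 1 lower. The share of all tested genes at that unadjusted cutoff was not counted, so these counts are only a description. Of 12 kinases and factors that ERK regulates, 0 were called with age by edgeR, DESeq2 or limma-voom, with 4 lower and 1 higher at an unadjusted p under 0.05 in edgeR. In heterozygotes 1 of these 12 fell, the ribosomal S6 kinase gene Rps6ka3 (log2 -0.36, SE 0.07, edgeR adjusted p = 0.0150). The Rps6ka3 call was lost when wild-type P30 replicate 2 (adjusted p = 0.128), heterozygous replicate 1 (0.132) or heterozygous replicate 2 (0.0892) was left out, and with summed transcripts (0.0517).

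Next came transcripts known to be induced through ERK, outside the set. This list too was chosen with earlier results of these data known, so its counts are only a description. Of 22 listed, 15 fell and 0 rose with age, and 12 fell and 1 rose in heterozygotes. Over all tested genes the shares were 4.54% and 2.999% with age and 2.32% and 0.903% in heterozygotes. The medians of the list were -0.77 and -0.77 against 0.00 over all genes. No gene of this list was higher with age at an unadjusted p under 0.05 in edgeR, or called higher by DESeq2 or limma-voom. The early response factor gene Egr2 stood at 94.7 and 118.6 CPM at wild-type P30, 6.44 and 4.49 CPM at P100 and 19.6 and 23.6 CPM in heterozygotes. Unlike any member, Egr2 was higher in heterozygotes than at P100 past the threshold (log2 1.97, SE 0.18, edgeR adjusted p = 5.11e-05). In that contrast 4 of the 22 were called higher in edgeR (Egr1, Egr2, Etv1 and Fos) and 0 lower. Over all tested genes the shares were 2.44% and 2.66%. DESeq2 called 2 of the list higher and 0 lower, and 2 were lower at an unadjusted p under 0.05 in edgeR. The Ets factor genes Etv4 and Etv5, named here after their values were seen because they are known to follow ERK together with Dusp6 and Spry4, were not called: Etv5 differed by -0.18 with age and by -0.45 in heterozygotes (edgeR adjusted p = 0.478 and 0.0981), and Etv4 by -0.25 and -0.33 (edgeR adjusted p = 0.634 and 0.566). Etv1 was the gene that rose in heterozygotes (log2 0.55, SE 0.14, edgeR adjusted p = 0.0473). It missed the threshold without wild-type P30 replicate 1 (log2 0.55, adjusted p = 0.109), wild-type P30 replicate 2 (log2 0.53, adjusted p = 0.194) or heterozygous replicate 1 (log2 0.42, adjusted p = 0.393) in edgeR, and with DESeq2 (log2 0.54, adjusted p = 0.0970).

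**Figure D5:**
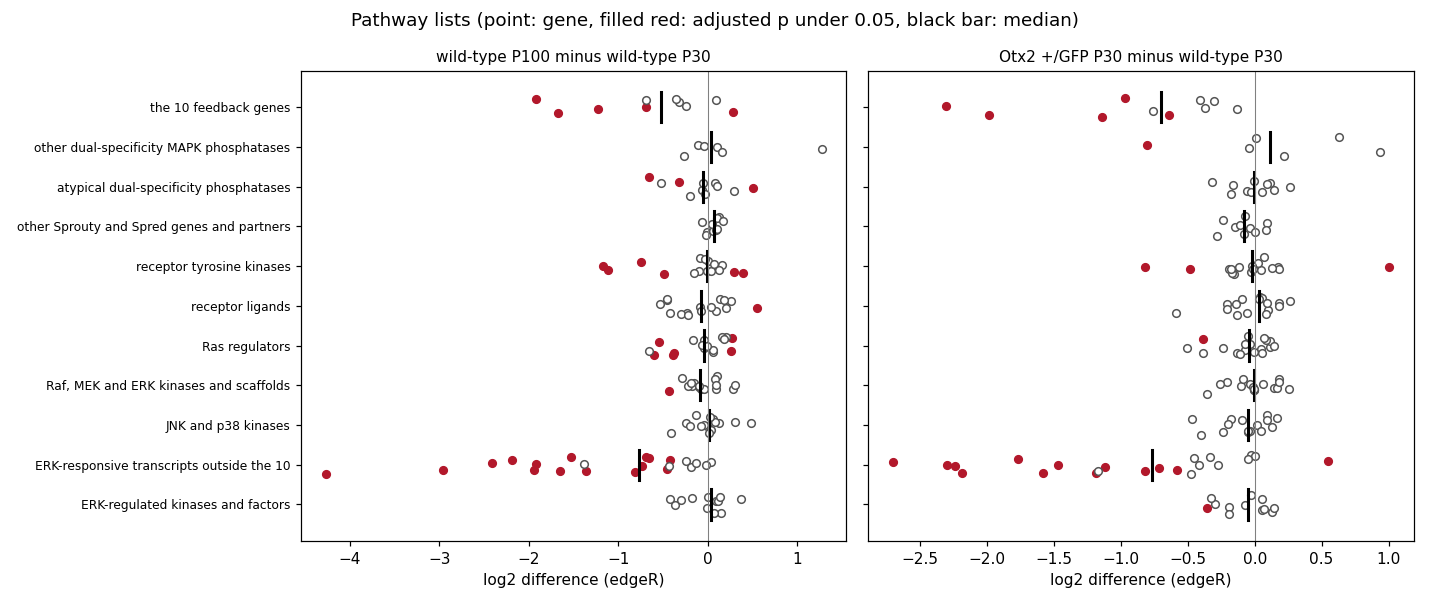
Log2 differences (horizontal axes) of the members and of 10 lists of pathway genes, with age (left) and in heterozygotes (right), 1 point per tested gene, red where the adjusted p is under 0.05, and a black bar at the median. The medians of the members and of the ERK-responsive transcripts lie between -0.52 and -0.77, and the other medians lie near 0. Members and lists were chosen with earlier results of these data known.

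Likeness of pattern was measured as the root mean square difference of log2(CPM + 1) over the 6 libraries, each gene centred on its own mean, among 9121 genes with a mean of at least 10 CPM. Nearest to Dusp1 were Junb (0.19), Nr4a1 (0.31) and Arc (0.31). Junb stood at 151.5 and 151.8 CPM at wild-type P30, 23.8 and 43.3 CPM at P100 and 23.3 and 43.2 CPM in heterozygotes, with the same low replicate in each of the 2 lower groups as Dusp1. Csrnp1 (0.12), Arid3b (0.13) and Per1 (0.15) were nearest to Dusp6. Spry2 was nearest to Dio2, Scube1 and Lamc1 (0.06, 0.06 and 0.07). For Spry4 the nearest were Irs2 (0.10), Sik2 (0.12) and Bhlhe40 (0.12), which share its gap between the P30 wild-type duplicates. Among the members themselves Dusp4 and Spry4 were the closest pair (0.15), followed by Spred1 and Spred2 (0.18).

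The authors' deposited table lists 4 of the 10 members as lower and 0 as higher at P100 at an adjusted p under 0.05, and 3 as lower and 0 as higher in heterozygotes. In the authors' deposited table the log2 changes of Dusp1 were -1.90 and -2.31, those of Dusp5 -1.67 and -1.98, and those of Dusp6 -1.23 and -1.14. Spry2 had an adjusted p of 0.00117 for age and 0.0568 for genotype in the authors' deposited table, and Spry4 0.873 and 0.303.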

How the data were processed

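Total RNA libraries were sequenced, per the labels. The deposited counts are raw read counts for 95533 Ensembl transcripts in each of 6 libraries, per the file headers and values. Alignment, counting and testing tools named in the submitters' processing notes are Bowtie, HTSeq and DESeq 1.8.3, with the build mm10. The annotation, the use of strand and other versions are not given in the sources used here. Each comparison table that the authors deposited holds a log2 fold change and an adjusted p-value per transcript, per the file headers.

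Reads overlapping several transcripts appear in each, so 1 transcript per gene was kept, the one with the highest total. The 9669 transcripts without a gene, with 13.96% of counts, were left out. Counts were filtered (filterByExpr, minimum count 10, total 15), scaled by TMM and fitted in edgeR 4.0.16 (R 4.3.3) by quasi-likelihood, all 6 libraries in 1 model of 3 groups, with 3 residual degrees of freedom. SE is the log2 difference over the root of F, and 95% intervals use it. The procedure was run on simulated counts, drawn independently per library with the spread fitted to these data. Such a run cannot show whether calls hold if the duplicates are not separate pools. Duplicates differed beyond sampling noise, with a chi-square of 3.77 to 5.57 per degree of freedom.

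Members and gene lists were chosen with earlier results of these data known. Named were all members, up to 2 genes per list and comparison with the smallest p among those called, and the 3 genes most like Dusp1, Dusp6, Spry2 and Spry4; the text gives a part. Exon lengths and overlaps come from GENCODE M21, promoters from RefSeq. Alternatives were RLE and upper-quartile scaling, library totals, no filter, CPM of 1 in 2 libraries, DESeq2 1.42.0, limma-voom (limma 3.58.1), only the 4 libraries compared, summed transcripts, a replicate block and leaving out each library. Of the pathway lists, the Ras regulators are not reported here.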

Additional observations from a re-analysis of the deposited data

How the results depend on the processing

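Over 16 alternatives, the 11 called differences of members kept direction and call in 162 of 176 fits and lost the call in 14, with no reversal. Dusp1, Dusp5 and Dusp6 kept both in all 16 for age and for genotype. With 2 libraries per group, single libraries move the calls of Spry2, Spry4, Dusp4, Dusp14 and Spred1.

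No filter gave 1096 lower and 764 higher genes with age, 728 and 392 in heterozygotes, and 715 and 758 for heterozygotes against P100. Members lower were then 6 with age (Dusp14 and Spry4 added), 7 in heterozygotes (Dusp4 and Dusp14 added) and 2 against P100 (Spred2 added). The added members had nearly unchanged log2 differences and smaller SEs than in the main fit. DESeq2 gave 295 higher with age and 94 in heterozygotes. Summed transcripts gave 297 higher with age, 192 lower and 71 higher in heterozygotes, and 256 and 246 against P100. No member was higher with age in summed transcripts or in only the 4 libraries compared (0 in each).

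Leaving out 1 library gave 233 to 661 lower and 118 to 417 higher genes with age, with 0 to 1 member higher. It gave 129 to 376 lower and 52 to 116 higher in heterozygotes, with 3 to 7 members lower. Against P100 it gave 135 to 473 lower and 120 to 469 higher, with 0 to 1 member lower. Differences that changed sign when 1 library was left out were not called in any fit where they did. With age these were Spred2 (-0.16 to 0.43; below 0 without wild-type P30 replicate 1 or P100 replicate 1) and Dusp4 (-0.61 to 0.088; above 0 without wild-type P30 replicate 2). In heterozygotes it was Spred2 (-0.55 to 0.034; above 0 without wild-type P30 replicate 2). Against P100 they were Dusp1 (-1.14 to 0.10), Dusp6 (-0.23 to 0.35), Dusp14 (-0.24 to 0.17) and Spry2 (-0.030 to 0.15), of which Dusp1 was called at -1.14. The cause was not tested, beyond the smaller number of libraries.

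Same-numbered libraries deviated together little (correlations 0.00, 0.13 and 0.00), and the 0.13 was between wild-type P30 and heterozygous P30. Whether same-numbered libraries share a batch is not given in the labels and was not tested. Genes called lower in heterozygotes were 450 with a replicate block and 368 without it. With the replicate block, 4 members were lower and 1 higher with age, 5 lower in heterozygotes and 1 lower against P100, the members called without it.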
